A study of Mus musculus with 32 samples.

Results

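Total transcript levels were compared between the preoptic area (POA) and the medial prefrontal cortex (PFC) of the adult mouse, over all autosomal genes that could be read in both. The tissue was microdissected from 5-week-old F1 mice. Their parents were CAST/EiJ, inbred from wild-caught castaneus mice, and C57BL/6J, a common laboratory strain, crossed in both directions. F1i animals had a CAST/EiJ mother and a C57BL/6J father, and F1r animals had the parents the other way round. Each region had 4 pools, an F1i male, an F1r male, an F1i female and an F1r female pool, each of 8 to 10 animals of 1 sex, and values are given in that order throughout. These 8 pools came from 16 of the 32 libraries of the series, since each pool was sequenced as 2 technical replicates that the authors summed. All animals carried 1 chromosome set of each strain, and none was treated. The labels do not say whether a POA pool and the PFC pool of the same cross and sex came from the same animals. Polyadenylated RNA was read at single bases by which the strains differ (SNPs). Reads with either base were added, so that the sum of both alleles measured the level of a gene, and the genes were chosen only for having such a base listed for both regions.

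The preoptic area is the rostral end of the hypothalamus. It is known for control of body temperature, sleep, fluid balance and reproductive and parental behaviour, and it holds many kinds of GABAergic and glutamatergic neurons that are told apart by their neuropeptides and hormone receptors. The medial prefrontal cortex is layered neocortex, built mainly of glutamatergic pyramidal neurons with a minority of GABAergic interneurons. Glutamate is loaded into vesicles by VGLUT1 (Slc17a7) in cortical pyramidal cells and by VGLUT2 (Slc17a6) in most hypothalamic glutamatergic cells.

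The tables for both regions shared 205738 transcript SNPs, and 111286 of them, a median of 6 per gene, were summed over 12563 autosomal genes, of which 11576 had enough reads to be tested. The summed informative reads came to between 3396659 and 7258382 per POA pool, against 4808547 and 7223046 per PFC pool. Values are CPM, reads scaled to a common total in every pool, after TMM scaling, which sets that total by the bulk of genes. Brackets give the log2 difference, POA minus PFC, ± its SE, and the adjusted p of edgeR's quasi-likelihood test. Values compare pools for 1 gene and not genes with each other, because a gene with more SNPs collects more reads. Summed levels of gene lists, given below, are for the same reason weighted toward members with many SNPs or reads. They can differ from the counts of members called. A single entry, Atpase6, took between 1.47 and 2.67% of the reads of a POA pool, against 5.04 to 8.43% of those of a PFC pool. The tables place it on an autosome, but its name is that of a mitochondrial gene, and whether its reads came from mitochondrial RNA was not tested. In such bulk tissue, fewer cells of a type and less RNA per cell cannot be told apart.

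Most genes differed between the regions. At an adjusted p under 0.05 from edgeR's quasi-likelihood test, 3119 genes (26.9%) were called higher in POA and 3381 (29.2%) lower, 56.2% in all, and the median log2 difference of all genes tested was -0.005 (0.096 under upper quartile scaling). Of all genes tested, 950 (8.21%) were called and at least 2-fold higher in POA, and 1236 (10.7%) were called and at least 2-fold lower. Under upper quartile scaling these counts were 1185 and 1041, so the side with more genes turned. For 2863 genes (24.7%) all 4 POA pools lay above all 4 PFC pools, and for 2938 (25.4%) all 4 lay below. Any list of genes is therefore read below against 26.9% higher and 29.2% lower. Where pools of a named gene are said below not to overlap, the same held for 24.7% and 25.4% of all genes. The named genes were mostly picked for large differences, so the lack of overlap is no separate finding. The listed genes were picked as markers of cells or as members of a pathway with earlier results of these data known, so their counts describe the regions and carry no test of their own.

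**Figure D1:**
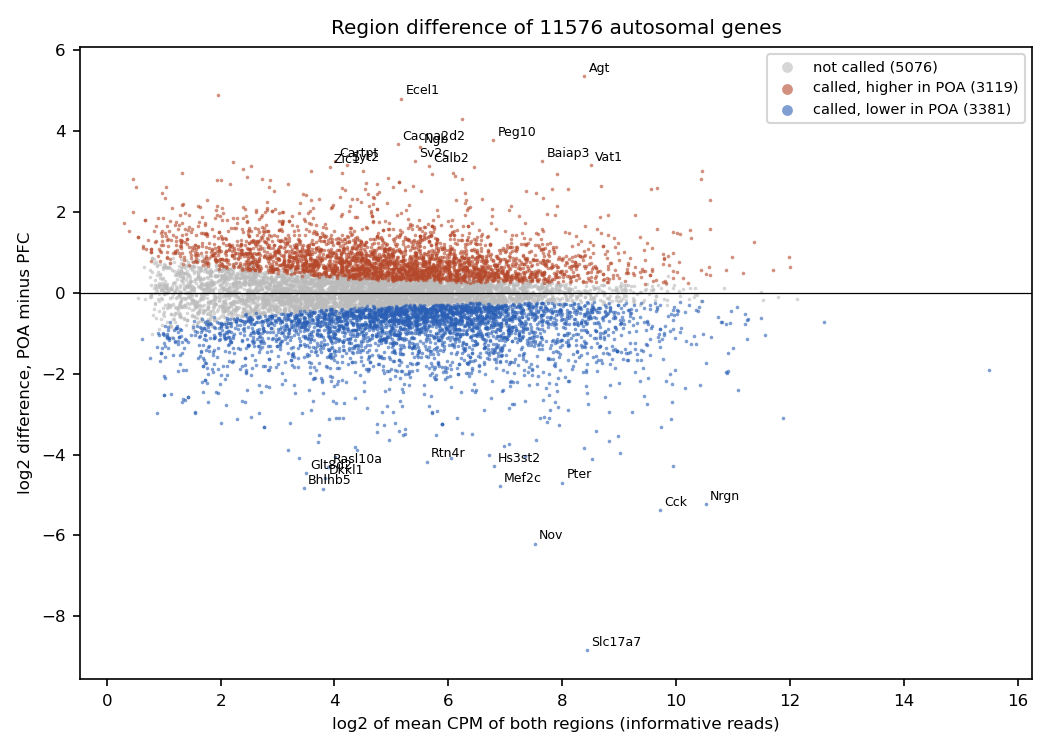
Each point is 1 of the 11576 genes tested, with the log2 of its mean CPM over both regions on the x axis and the log2 difference, POA minus PFC, on the y axis. Red points are the 3119 genes called higher in POA and blue points the 3381 called lower. Named are the 12 of largest difference in each direction with a gene symbol, at least 50 reads per pool on average and no overlap. Of these, Slc17a7 lies lowest, at -8.84.

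Leading genes were taken from called genes with at least 50 reads per pool on average and no overlap between the regions' pools. Entries without a gene symbol, such as RIKEN, clone or accession names, were left out. Among the genes so taken, the largest difference was in the glutamate transporter of pyramidal cells. Slc17a7 had 1.35, 0.944, 1.48 and 1.87 CPM in POA, against 716, 591, 736 and 727 CPM in PFC (log2 -8.84 ± 0.17 SE, adjusted p = 2.6e-13), so every POA pool was below 2 CPM while no PFC pool was below 590 CPM. Next in order came Nov (CCN3), a secreted matricellular protein, with 5.68, 2.36, 4.84 and 5.98 CPM in POA, against 448, 290.4, 383 and 329 CPM in PFC (log2 -6.20 ± 0.19 SE, adjusted p = 1.7e-11). Cck, the precursor of the neuropeptide cholecystokinin, had 39.5, 43.9, 34.6 and 41.8 CPM in POA, against 1434, 1567, 1687 and 1894 CPM in PFC (log2 -5.37 ± 0.12 SE, adjusted p = 1.1e-12). Nrgn (neurogranin), a calmodulin-binding postsynaptic protein of forebrain neurons, had 81.4, 79.6, 69.5 and 75.9 CPM in POA, against 2768, 2329, 2573 and 3766 CPM in PFC (log2 -5.22 ± 0.16 SE, adjusted p = 1.7e-11). The pools of the regions lie apart in all 4 genes by the way they were picked. The spread within a region was small beside the gap. The other genes of largest difference that were lower in POA were the transcription factors Bhlhb5 (-4.84 ± 0.24) and Mef2c (-4.78 ± 0.25), Pter (-4.69 ± 0.21), Dkkl1 (-4.58 ± 0.23), Glt8d2 (-4.46 ± 0.27), the Ras-like GTPase gene Rasl10a (-4.32 ± 0.21), the heparan sulphate sulphotransferase gene Hs3st2 (-4.29 ± 0.14) and the Nogo receptor gene Rtn4r (-4.17 ± 0.20), each given as the log2 difference with its SE.

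At the other end stood Agt (angiotensinogen), which astrocytes of the brain make and from which angiotensins are cut. Agt had 714, 591, 687 and 622 CPM in POA, against 14.2, 11.6, 12.4 and 25.1 CPM in PFC (log2 5.36 ± 0.21 SE, adjusted p = 1.2e-10). Ecel1, a membrane metallopeptidase related to endothelin-converting enzyme, had 75.2, 90.7, 61.3 and 52.2 CPM in POA, against 2.03, 2.04, 2.84 and 2.77 CPM in PFC (log2 4.80 ± 0.23 SE, adjusted p = 1.0e-09). Peg10, a paternally expressed gene derived from a retrotransposon, had 239, 198, 219 and 167 CPM in POA, against 16.7, 17, 11.5 and 14.8 CPM in PFC (log2 3.78 ± 0.15 SE, adjusted p = 2.0e-10). These 3 genes were also picked among those without overlap. The F1r female POA pool was the lowest of the 4 for Ecel1 and Peg10. The rest of the 12 genes of largest difference that were higher in POA were the calcium channel subunit gene Cacna2d2 (3.68 ± 0.19), the neuroglobin gene Ngb (3.59 ± 0.22), the exocytosis gene Baiap3 (3.26 ± 0.20), the synaptic vesicle genes Sv2c (3.26 ± 0.17) and Syt2 (3.16 ± 0.18), the peptide precursor gene Cartpt (3.25 ± 0.26), Vat1 (3.16 ± 0.12), the calretinin gene Calb2 (3.13 ± 0.14) and the transcription factor Zic1 (3.11 ± 0.21).

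**Figure D2:**
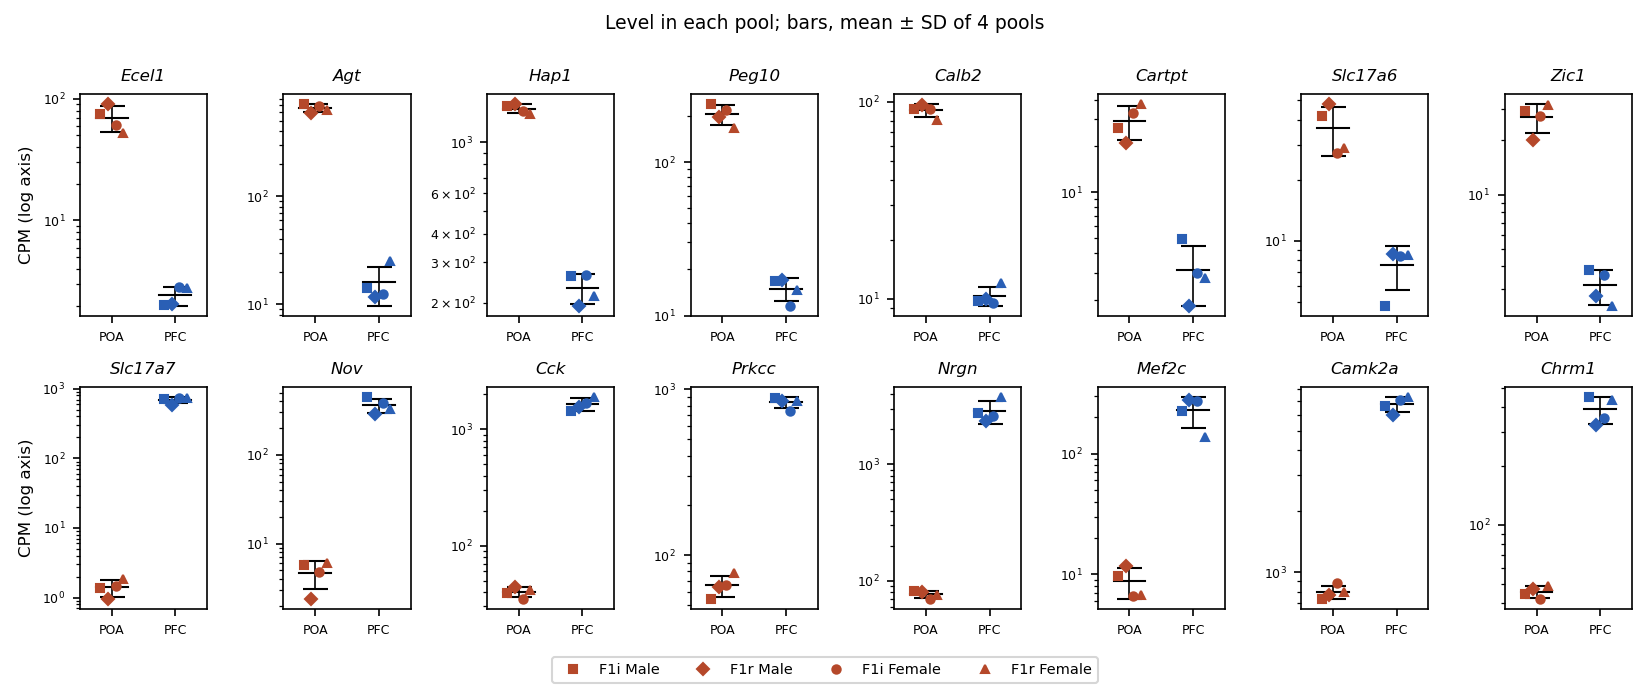
CPM (log axis) of 16 genes in each of the 4 POA and 4 PFC pools, with the symbol giving the cross and sex; lines are the mean and SD of 4 pools. The upper row holds genes higher in POA and the lower row genes lower in POA. No pools overlap between the regions, which for the genes of largest difference follows from how they were picked.

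The counts come from single bases, and a base of the coding sequence is shown for 4 genes of each direction to make plain what was read. Each line gives the sense strand of the C57BL/6J reference (assembly NCBIM37, which is mm9), with the base that differs in CAST/EiJ in capitals in the middle of 29 bases. Each lies within a coding exon of the gene in GENCODE vM1.
Slc17a7: ctgctcctcatctcTcagcccgcctactt
Nov: tgtggctcagacgaGcaggggacgcaggg
Cck: cccgaaggcagctgCgggctgtgctccgg
Prkcc: tacgctgcggaaatCgccataggcctctt
Agt: cagcagcctggctcAccggaggcactgga
Ecel1: cagttgtccgtcaaAaagattcgacagga
Peg10: ggacgaataatcgtTgtgcctgttgtaat
Hap1: gaggaggtggaaccGgaggtggacgagac
The Slc17a7 window (chr7:52427235-52427263, within the gene at chr7:52419291-52431508, plus strand) had 1, 1, 3 and 5 reads in the POA pools, against 1123, 590, 1448 and 1424 reads in the PFC pools. At the Nov base (chr15:54579524-54579552, gene at chr15:54577257-54585594, plus strand) there were 5, 3, 4 and 7 reads in the POA pools, against 432, 328, 548 and 455 reads in the PFC pools. These are raw reads of both alleles from the genome alignment, before any scaling for depth. The Cck base (chr9:121403502-121403530, gene at chr9:121398943-121404807, minus strand) had 13, 14, 32 and 59 reads in the POA pools, against 389, 338, 1026 and 1114 reads in the PFC pools. For Prkcc (protein kinase C gamma) the base at the centre of chr7:3322821-3322849, plus strand, in the gene at chr7:3303640-3330714, had 11, 19, 39 and 54 reads in the POA pools, against 931, 650, 743 and 710 reads in the PFC pools. Only bases listed for both regions could be shown, so some reads in both regions follow from that choice. In every POA pool these 4 bases were read far less often than in any PFC pool. The Agt base (chr8:127080930-127080958, gene at chr8:127080434-127093606, minus strand) had 290, 251, 406 and 557 reads in the POA pools, against 6, 4, 3 and 11 reads in the PFC pools. At the Ecel1 base (chr1:89047490-89047518, gene at chr1:89044230-89053096, minus strand) there were 114, 177, 240 and 224 reads in the POA pools, against 2, 5, 1 and 5 reads in the PFC pools. Both were read 1 to 11 times in a PFC pool. The Peg10 base (chr6:4707082-4707110, gene at chr6:4697306-4710514, plus strand) had 96, 97, 146 and 146 reads in the POA pools, against 4, 7, 16 and 7 reads in the PFC pools. The Hap1 base (chr11:100210697-100210725, gene at chr11:100208641-100217455, minus strand) had 366, 457, 715 and 915 reads in the POA pools, against 48, 39, 61 and 32 reads in the PFC pools.

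Markers of each region were set beside the dissection labels, as a description. Of the genes known for preoptic and hypothalamic neurons, 16 of 18 tested members were called higher in POA and 0 lower, with a median log2 difference of 2.44. All 16 called members differed at least 2-fold, and the summed level of the tested members was 6820.4 to 7719 CPM in the POA pools, against 1350.1 to 1624 CPM in the PFC pools. Hap1 (huntingtin-associated protein), which hypothalamic neurons express strongly, had 1435, 1464, 1368 and 1325 CPM in POA, against 261, 194, 264 and 214 CPM in PFC (log2 2.59 ± 0.11 SE, adjusted p = 2.0e-10). Calb2, a calcium-binding protein, had 92.5, 97, 92.5 and 80.7 CPM in POA, against 9.71, 9.99, 9.58 and 12 CPM in PFC (log2 3.13 ± 0.14 SE, adjusted p = 4.1e-10). Esr1 (oestrogen receptor alpha), which marks hormone-sensitive preoptic neurons, was read at a low level, 4.11 to 6.85 CPM in POA, against 0.554 to 2.94 CPM in PFC (log2 1.84 ± 0.33 SE, adjusted p = 3.2e-04). None of these 3 overlapped between the regions. The granin-like secretory gene Resp18 had 114 to 136 CPM in POA, against 25.2 to 30.9 CPM in PFC, with a log2 difference of 2.22 ± 0.12. The remaining 2 tested members, Pgr (progesterone receptor) and Mc4r (melanocortin 4 receptor), were not called. Pgr had 18.7, 29, 20.3 and 21 CPM in POA, against 11.1, 42.5, 19.9 and 14.4 CPM in PFC, so its pools overlapped (adjusted p = 0.89), and Mc4r had 2.61 to 4.49 CPM in POA, against 1.66 to 4.77 CPM in PFC (adjusted p = 0.76).

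Genes expressed from the paternal copy were among the called markers. Beside Peg10, Peg3 had 932 to 1024 CPM in POA, against 164 to 318 CPM in PFC (log2 difference 1.92 ± 0.15), and Ndn had 145 to 208 CPM in POA, against 31.1 to 51.1 CPM in PFC (log2 difference 2.06 ± 0.15, from 1 SNP). Where Peg3 and Usp29 overlap, reads without strand cannot be assigned to either of them. A coding base of Peg3 that no other GENCODE vM1 gene covers had 478, 371, 672 and 703 raw reads in the POA pools. In the PFC pools it had 310, 120, 295 and 120. Tmem130 (2.29 ± 0.09), Nrsn2 (2.63 ± 0.10), Ahi1 (1.16 ± 0.10), Ngb and Baiap3 complete the called members that are no transmitter or peptide gene.

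Of the cortical excitatory markers, 0 of 23 tested members were called higher in POA and 19 lower, with a median log2 difference of -1.91. Their summed level was 1842 to 2039 CPM in the POA pools, against 12905 to 15109 CPM in the PFC pools. Camk2a, the alpha subunit of calmodulin kinase II, had 735, 767, 879.6 and 798 CPM in POA, against 6645, 5997, 7065 and 7307 CPM in PFC (log2 -3.09 ± 0.10 SE, adjusted p = 3.1e-11). Tbr1, a transcription factor of deep-layer cortical neurons, had 6.76, 5.43, 8.07 and 8.71 CPM in POA, against 59.6, 45.9, 61.5 and 63.6 CPM in PFC (log2 -2.95 ± 0.17 SE, adjusted p = 6.4e-09). The vesicle protein gene Sv2b (-3.95 ± 0.13), the plasticity genes Nrn1 (-3.22 ± 0.16) and Nptx1 (-2.27 ± 0.11), the potassium channel gene Kcnh3 (-2.40 ± 0.16) and Lamp5, listed as 6330527O06Rik (-1.97 ± 0.15), were lower in POA as well. Smaller differences were called for Pde1a (-1.91), Cabp1 (-1.73), Etv1 (-1.58), Lmo3 (-1.40), Foxp1 (-1.37), Arpp21 (-1.06), Cux2, listed as Cutl2 (-0.98), and Crym (-0.85). Crym lost the call with its deepest SNP alone, at -0.246. The 4 members not called were Slc6a7, Tle4, Rasgrf2 and Rorb, all with overlapping pools. Rorb, a marker of layer 4, had 6.97 to 9.74 CPM in POA, against 3.88 to 10.2 CPM in PFC (adjusted p = 0.5).

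Every SNP in a table had at least 1 read in each of its 4 pools, so a gene that was silent in some pool of a region is not in that region's table. Over all autosomal genes, 1086 symbols were listed for POA alone, 819 for PFC alone and 12819 for both. Genes listed for 1 region alone have no fold here. Of 32 listed preoptic and hypothalamic markers, 14 were listed for POA alone and 0 for PFC alone. Of 28 listed cortical excitatory markers, 0 were listed for POA alone and 5 for PFC alone. For such counts below, the listed members were 40 hypothalamic and subpallial transcription factors, 35 neuropeptide precursors and 43 peptide receptors. They were 18 for transmitter identity and 20 for ependymal, choroid plexus and tanycyte cells. Among all listed members, those with many reads that were in 1 table included Trh, the precursor of thyrotropin-releasing hormone (3970 reads over 4 POA pools), Oxt, the oxytocin precursor (3246), Slc5a7, the choline transporter of cholinergic neurons (2423), Dlk1 (2230), Clic6 (1661), the neurotensin precursor Nts (987) and the neurokinin 3 receptor Tacr3 (921). For PFC alone they included Neurod6 (2252 reads over 4 PFC pools), a transcription factor of cortical projection neurons, and the ribosomal gene Rps10 (2422), for which near-identical copies may share reads.

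**Figure D3:**
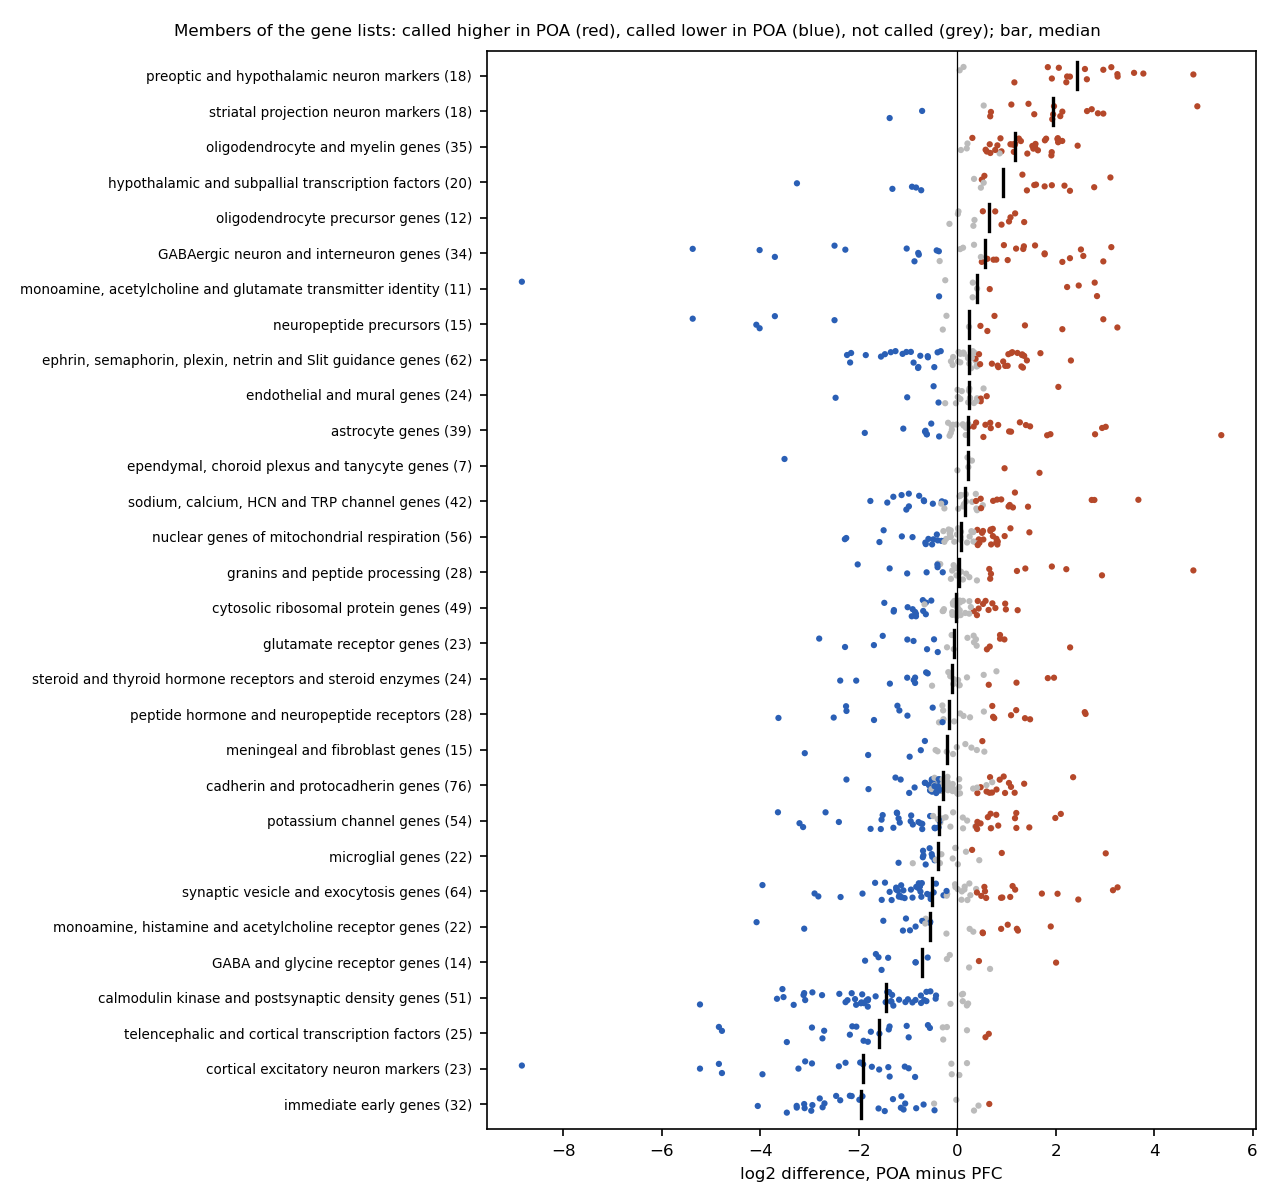
Each row is 1 of 30 gene lists with its number of tested members in brackets, each point the log2 difference, POA minus PFC, of a member, and the bar the list's median. The rows run from the preoptic and hypothalamic markers, with a median of 2.44, down to the immediate early genes, with a median of -1.96.

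Transcription factors showed both sides. Among those of the telencephalon and cortex, 2 of 25 tested members were called higher in POA and 19 lower, with a median log2 difference of -1.58. Mef2c, which acts in cortical neuron differentiation and synapse number, had 9.74, 11.8, 6.59 and 6.72 CPM in POA, against 227, 282, 274 and 139 CPM in PFC (log2 -4.78 ± 0.25 SE, adjusted p = 2.1e-09). Egr3 had 9.68 to 13.9 CPM in POA, against 108 to 180.3 CPM in PFC (log2 -3.46 ± 0.19 SE, adjusted p = 3.2e-09). Bcl11b (CTIP2), which marks deep-layer cortical and also striatal neurons, was not called, with 32.3 to 42.5 CPM in POA, against 37.2 to 50.8 CPM in PFC (adjusted p = 0.21). Among transcription factors of the hypothalamus and the subpallium, the ventral telencephalon next to it, 12 of 20 tested members were called higher in POA and 5 lower, with a median log2 difference of 0.94, and 16 more were listed for POA alone and 1 for PFC alone. Lhx6, a factor of neurons born in the medial ganglionic eminence, had 137, 122, 136 and 129 CPM in POA, against 27.3, 24.5, 28 and 27.2 CPM in PFC (log2 2.29 ± 0.11 SE, adjusted p = 7.4e-10). Zic1 had 29, 20.1, 27.4 and 31.5 CPM in POA, against 3.84, 2.72, 3.59 and 2.4 CPM in PFC (log2 3.11 ± 0.21 SE, adjusted p = 2.8e-08). All POA pools were above all PFC pools for both. Pbx3 was at 4.33 to 9.21 CPM in POA, against 0.299 to 1.82 CPM in PFC, from 1 SNP (log2 2.78 ± 0.31 SE, adjusted p = 4.1e-06). Meis2, a member of the list, went the other way, with 9.01 to 13.8 CPM in POA, against 85.7 to 127 CPM in PFC (log2 -3.25 ± 0.17 SE, adjusted p = 1.8e-09), and Sp9 and Dlx5 were not called. Without the F1r female POA or the F1i female PFC pool 3 members in place of 5 were called lower.

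Neuropeptide precursors differed in both directions, with 7 of 15 tested members called higher in POA and 5 lower, a median log2 difference of 0.24, and 15 more listed for POA alone and 1 for PFC alone. The summed level of the tested members was 762 to 809 CPM in the POA pools, against 2566 to 3257 CPM in the PFC pools. Cck alone gave 1434 to 1894 CPM of the PFC sums. Precursors listed for POA alone are not in these sums, so they do not compare all precursor RNA of the regions. With the deepest SNP of each gene alone, 4 members were called higher and the median was -0.178. The median was also below 0 in the female pools, in the F1i pools and without the F1r male POA pool. Tac1, the precursor of substance P, had 119, 99.6, 123 and 140.4 CPM in POA, against 11.5, 17.5, 15.1 and 17.6 CPM in PFC (log2 2.97 ± 0.15 SE, adjusted p = 1.8e-09). Cartpt had 26, 20.8, 32.7 and 37.5 CPM in POA, against 4.97, 1.82, 2.99 and 2.77 CPM in PFC (log2 3.25 ± 0.26 SE, adjusted p = 1.7e-07). The precursors that were lower in POA included peptides of cortical interneurons. Npy had 8.93, 9.44, 16.9 and 12.1 CPM in POA, against 218, 166, 174 and 233 CPM in PFC (log2 -4.01 ± 0.19 SE, adjusted p = 9.0e-10). Vip had 1.35, 1.65, 2.15 and 1.99 CPM in POA, against 26.2, 20.2, 26.1 and 25.7 CPM in PFC (log2 -3.70 ± 0.21 SE, adjusted p = 4.1e-09). Grp (gastrin-releasing peptide) had 5.1 to 10.6 CPM in POA, against 105 to 140.4 CPM in PFC (log2 -4.08 ± 0.17 SE, adjusted p = 2.0e-10). With Cck, these 4 precursors were each below every PFC pool in every POA pool. Cbln2 and Nucb2 were not called. Of the granins and the enzymes that process peptides, 9 of 28 tested members were called higher in POA and 7 lower, with a median log2 difference of 0.03. Under upper quartile scaling the counts were 10 and 5 and the median 0.13. Ece2, an endothelin-converting enzyme, had 90.4, 95.4, 89.3 and 97.7 CPM in POA, against 12.4, 10.4, 10.3 and 15.3 CPM in PFC (log2 2.94 ± 0.14 SE, adjusted p = 9.0e-10). The prohormone convertase gene Pcsk2 had 367, 371, 409 and 362 CPM in POA, against 1543, 1699, 1498 and 1382 CPM in PFC (log2 -2.02 ± 0.10 SE, adjusted p = 1.1e-09). Chga (chromogranin A) was not called, with 741 to 837 CPM in POA, against 650.4 to 833 CPM in PFC (adjusted p = 0.56), and neither was the dense-core vesicle gene Ptprn2 (adjusted p = 0.63).

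Receptors for peptides were called in both directions. Here 9 of 28 tested members were called higher in POA and 10 lower, with a median log2 difference of -0.17, and 11 more were listed for POA alone and 1 for PFC alone. The cholecystokinin B receptor gene Cckbr was lower in POA together with the Cck precursor, with 31.4, 22, 31.2 and 26.3 CPM in POA, against 335, 357, 329 and 348 CPM in PFC (log2 -3.63 ± 0.12 SE, adjusted p = 3.6e-11). Sstr3, a somatostatin receptor, had 12.5 to 15.8 CPM in POA, against 72.8 to 88.5 CPM in PFC (log2 -2.51 ± 0.13 SE, adjusted p = 2.0e-09). Npy2r, the Y2 receptor of neuropeptide Y, was higher in POA with 27.1, 30.5, 29.3 and 33.6 CPM in POA, against 4.07, 5.22, 3.29 and 7.76 CPM in PFC (log2 2.59 ± 0.19 SE, adjusted p = 7.7e-08), while the Npy precursor was lower there. Tacr1, the receptor of substance P, was higher in POA with 11.2 to 13.2 CPM in POA, against 1.11 to 2.94 CPM in PFC (log2 2.61 ± 0.27 SE, adjusted p = 1.9e-06), as was the Tac1 precursor. Igf1r and Ntsr1 were not called. Among receptors and enzymes for steroid and thyroid hormones, 4 of 24 tested members were called higher in POA and 9 lower, with a median log2 difference of -0.11. With the deepest SNP alone 7 were called higher, and with a mean of at least 50 reads 1 was. Dio2, which activates thyroid hormone, had 23.5, 28.3, 25.6 and 23.5 CPM in POA, against 90.4, 131, 83.5 and 118 CPM in PFC (log2 -2.05 ± 0.13 SE, adjusted p = 1.8e-08). Rarb (retinoic acid receptor beta) had 7.79 to 15.7 CPM in POA, against 2.03 to 5.45 CPM in PFC (log2 1.97 ± 0.30 SE, adjusted p = 8.5e-05), and Ncoa2 and Hsd17b4 were not called.

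Among genes that set a neuron's transmitter, the vesicular glutamate transporters were opposed. While Slc17a7 was nearly unread in POA, Slc17a6 had 41.7, 47.9, 27.4 and 28.9 CPM in POA, against 4.74, 8.63, 8.38 and 8.5 CPM in PFC (log2 2.23 ± 0.22 SE, adjusted p = 1.4e-06). Ache, which breaks down acetylcholine, had 128, 136, 128 and 136 CPM in POA, against 28.5, 15.9, 26.4 and 24.9 CPM in PFC (log2 2.47 ± 0.15 SE, adjusted p = 8.6e-09). Ddc, which makes dopamine and serotonin from their precursors, had 6.35 to 7.79 CPM in POA, against 0.452 to 1.29 CPM in PFC (log2 2.79 ± 0.29 SE, adjusted p = 1.9e-06). All 3 were higher in every POA pool than in any PFC pool. The glycine transporter gene Slc6a9 had 49.3 to 61.9 CPM in POA, against 5.84 to 9.06 CPM in PFC (log2 2.84 ± 0.17 SE, adjusted p = 6.3e-09). In the whole list, 5 of 11 tested members were called higher in POA and 2 lower, with a median log2 difference of 0.40, and 7 more were listed for POA alone and 0 for PFC alone. Gls2 was not called. Of GABAergic and interneuron genes, 18 of 34 tested members were called higher in POA and 11 lower, with a median log2 difference of 0.56. Their summed level was 8013 to 8636 CPM in the POA pools, against 5531 to 5841 CPM in the PFC pools. Calb2, Tac1 and Lhx6 were among the members higher in POA, and Cck, Npy and Vip among those lower in POA. Reln (reelin) had 103 to 109.9 CPM in POA, against 77.2 to 124 CPM in PFC and was not called. Kcnc2, a fast potassium channel gene, had 126 to 143 CPM in POA, against 104 to 143 CPM in PFC and was not called either.

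Markers of striatal projection neurons, the neighbouring cell class of the ventral forebrain, were higher in POA. In this list 15 of 18 tested members were called higher in POA and 2 lower, with a median log2 difference of 1.94, and the summed level was 2008 to 2518 CPM in the POA pools, against 811 to 870.4 CPM in the PFC pools. Adora2a, an adenosine receptor gene, had 7.58, 5.67, 8.74 and 7.97 CPM in POA, against 0.226, 0.227, 0.299 and 0.185 CPM in PFC (log2 4.88 ± 0.35 SE, adjusted p = 5.5e-08), from 1 SNP. Scn4b, a sodium channel subunit, had 63, 51.7, 66.5 and 62.9 CPM in POA, against 7.23, 11.4, 9.13 and 9.06 CPM in PFC (log2 2.73 ± 0.16 SE, adjusted p = 6.3e-09). The orphan receptor gene Gpr6 had 7.8 to 11.4 CPM in POA, against 0.908 to 2.03 CPM in PFC (log2 2.86 ± 0.28 SE, adjusted p = 1.1e-06). Foxp1 was lower in POA, with 6.85 to 9.71 CPM in POA, against 16.6 to 25.9 CPM in PFC (log2 -1.37 ± 0.19 SE, adjusted p = 3.3e-05), and Rxrg was not called. These levels stand beside the differences of the preoptic and GABAergic lists, and their part in those differences was not tested.

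Glia differed by type. Of the oligodendrocyte and myelin genes, 31 of 35 tested members were called higher in POA and 0 lower, with a median log2 difference of 1.18. Mag (myelin-associated glycoprotein) had 355, 370.0, 457 and 385 CPM in POA, against 89.9, 44, 55.1 and 175 CPM in PFC (log2 2.13 ± 0.31 SE, adjusted p = 4.7e-05), and without the F1r female PFC pool the difference was 2.72. Ugt8a, which makes the myelin lipid galactosylceramide, had 135, 140.5, 119 and 117 CPM in POA, against 22.6, 33.6, 22.8 and 48.6 CPM in PFC (log2 2.04 ± 0.18 SE, adjusted p = 3.1e-07). Gm98 (Myrf), the transcription factor of myelination, had 58.1 to 66.6 CPM in POA, against 10.8 to 23.1 CPM in PFC (log2 2.05 ± 0.20 SE, adjusted p = 9.3e-07). In all 3 the F1r female pool was the highest PFC pool. Nkx6-2 had 12.3 to 29.2 CPM in POA, against 0.681 to 5.17 CPM in PFC (log2 2.45 ± 0.35 SE, adjusted p = 4.0e-05). The summed level of the list was 10864 to 11944 CPM in the POA pools, against 2995 to 7578 CPM in the PFC pools, so the PFC pools themselves differed by far more than the POA pools, and the F1r female pool was the highest of the 4. Leaving out 1 pool at a time gave 29 to 33 members called higher and 0 lower. Plekhb1 and Enpp2 were not called. Among genes of oligodendrocyte precursors, 7 of 12 tested members were called higher in POA and 0 lower, with a median log2 difference of 0.65. Gpr17 had 241 to 325 CPM in POA, against 118 to 149.7 CPM in PFC (log2 1.08 ± 0.12 SE, adjusted p = 3.5e-06). Lhfpl3 had 67.5 to 71.4 CPM in POA, against 21.6 to 34.1 CPM in PFC (log2 1.36 ± 0.13 SE, adjusted p = 9.1e-07), and Neu4 a log2 difference of 1.05 ± 0.18, while Sox8 and Ptprz1 were not called.

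**Figure D4:**
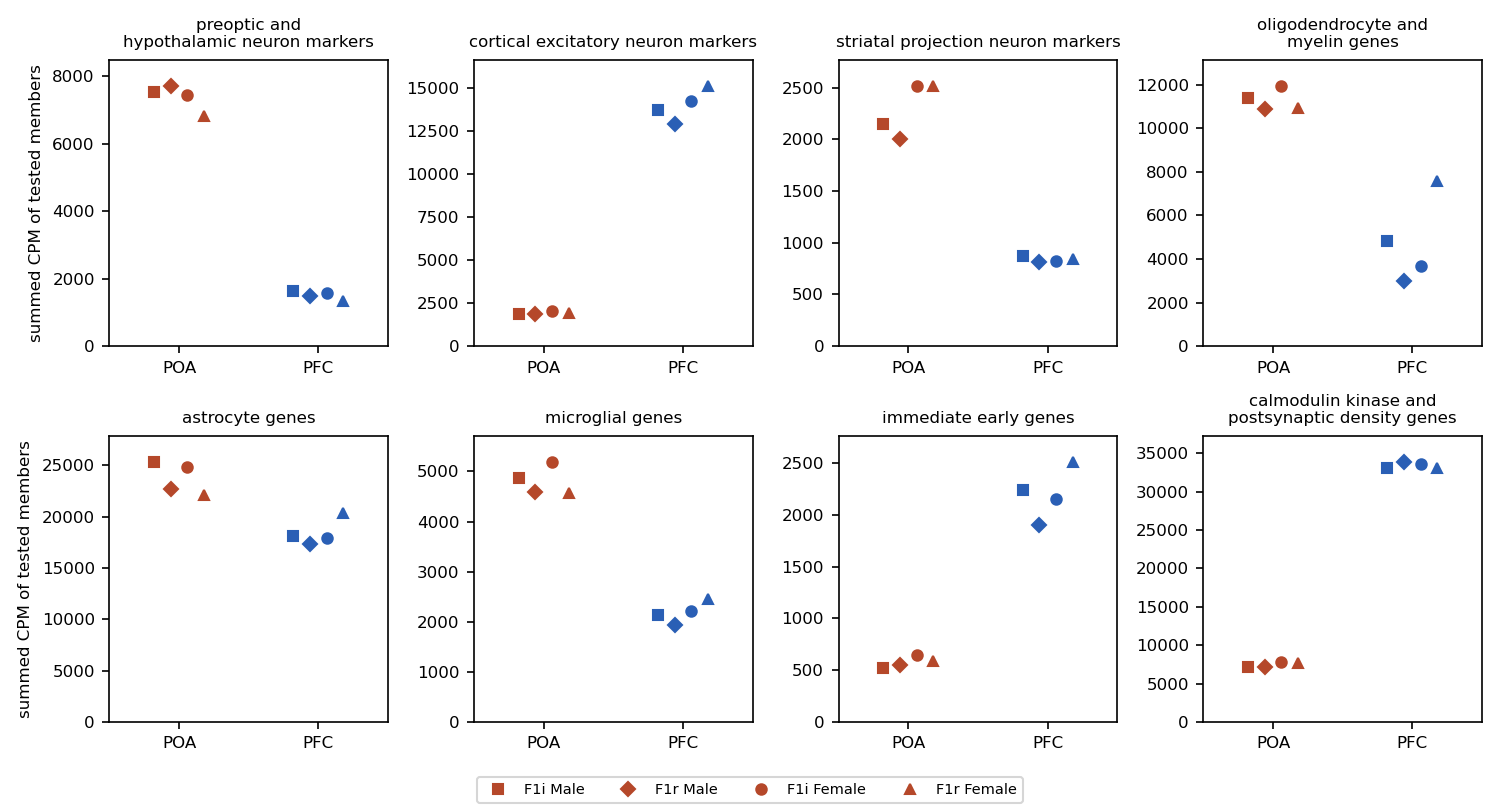
Summed CPM of the tested members of 8 gene lists in each of the 4 POA and 4 PFC pools, with the symbol giving the cross and sex. The myelin sums spread from 2995 to 7578 CPM over the PFC pools, and the 4 POA pools stand apart from the 4 PFC pools in each panel.

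Of the astrocyte genes, 19 of 39 tested members were called higher in POA and 8 lower, with a median log2 difference of 0.23. Upper quartile scaling gave 21 higher and 5 lower, and 5 were also called lower without the F1i female or the F1r female POA pool. Besides Agt, the GABA transporter gene Slc6a11 (GAT-3) had 2383, 2301, 2654 and 2353 CPM in POA, against 303, 338, 377 and 373 CPM in PFC (log2 2.80 ± 0.11 SE, adjusted p = 1.0e-10). Sparc, a secreted matrix protein, had 2579.6, 2507, 2672 and 2282 CPM in POA, against 317, 267, 303 and 353 CPM in PFC (log2 3.02 ± 0.11 SE, adjusted p = 6.9e-11). Itih3 had 399 to 462 CPM in POA, against 44 to 73.2 CPM in PFC (log2 2.94 ± 0.13 SE, adjusted p = 3.3e-10). The summed level of the list differed much less than these genes, at 22134 to 25355 CPM in the POA pools, against 17290.3 to 20330.4 CPM in the PFC pools. Apoe and Mt3, both abundant in astrocytes, were not called: Apoe had 832, 858, 832 and 834 CPM in POA, against 990.3, 698, 821 and 1228 CPM in PFC (adjusted p = 0.37). Of the microglial genes, 3 of 22 tested members were called higher in POA and 9 lower, with a median log2 difference of -0.39, while their summed level was 4560.1 to 5194 CPM in the POA pools, against 1933 to 2448 CPM in the PFC pools. Sparc and Cst3 (1055 to 1359 CPM in POA, against 509 to 808 CPM in PFC), which other cells make too, gave the largest parts of the sum in POA. Tyrobp had 6.49 to 11.3 CPM in POA, against 13.2 to 15.1 CPM in PFC (log2 -0.70 ± 0.19 SE, adjusted p = 0.0054). Fcgr3 had 3.36 to 5.41 CPM in POA, against 7.26 to 10.2 CPM in PFC (log2 -1.19 ± 0.21 SE, adjusted p = 3.2e-04), but lost the call with its deepest SNP alone, at -0.262. C1qc was not called.

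Of endothelial and mural genes, 4 of 24 tested members were called higher in POA and 4 lower, with a median log2 difference of 0.23. Upper quartile scaling gave 6 higher and 2 lower, the deepest SNP alone gave 7 higher, and every listed SNP gave 8 higher. Leaving out the F1r male, the F1i female or the F1r female POA pool left 2 called lower, and leaving out the F1i male PFC pool left 2 called higher. Cldn5 (claudin 5) was at 5.9 to 13.6 CPM in POA, against 1.13 to 3.86 CPM in PFC (log2 2.05 ± 0.33 SE, adjusted p = 1.3e-04). Cd34 was at 3.9 to 4.96 CPM in POA, against 21.2 to 25.2 CPM in PFC (log2 -2.47 ± 0.17 SE, adjusted p = 2.7e-08). The thyroid hormone transporter gene Slco1c1 was at 47.1 to 59.7 CPM in POA, against 82 to 141 CPM in PFC (log2 -1.01 ± 0.13 SE, adjusted p = 1.6e-05). Acta2 was called higher in POA with overlapping pools (log2 0.60 ± 0.22 SE, adjusted p = 0.029), and lost the call without the F1i female POA, the F1r female POA or the F1i male PFC pool, with log2 differences of 0.56, 0.56 and 0.43. Bsg and Slc2a1 were not called.

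Genes of ependymal, choroid plexus and tanycyte cells, which line the ventricles, had 7 tested members, with 2 called higher in POA and 1 lower, a median log2 difference of 0.23, and 12 more listed for POA alone. Without the F1r male PFC pool 4 were called higher. The cilia gene Rsph1 was at 31.4 to 44.9 CPM in POA, against 18.9 to 20.9 CPM in PFC (log2 0.96 ± 0.15 SE, adjusted p = 1.0e-04). Tekt1, another gene of cilia, was at 2.61 to 4.04 CPM in POA, against 0.678 to 1.5 CPM in PFC (log2 1.67 ± 0.31 SE, adjusted p = 4.4e-04). Crhbp, the binding protein of corticotropin-releasing hormone, which cortical neurons also make, had 1.08 to 2.83 CPM in POA, against 19 to 29.8 CPM in PFC (log2 -3.51 ± 0.24 SE, adjusted p = 3.4e-08), and Vim was not called. Of meningeal and fibroblast genes, 1 of 15 tested members were called higher in POA and 5 lower, with a median log2 difference of -0.21. Their summed level was 579.9 to 689 CPM in the POA pools, against 640.0 to 824 CPM in the PFC pools. Upper quartile scaling gave 3 higher and 4 lower, every listed SNP gave 4 higher, and DESeq2 gave 0 higher. The 1 call higher in POA became 0 without the F1i female POA or the F1i female PFC pool and 2 without any 1 of the F1i male POA, F1r male POA, F1r male PFC and F1r female PFC pools. Nupr1 was at 2.37 to 5.14 CPM in POA, against 21.3 to 37.3 CPM in PFC (log2 -3.09 ± 0.21 SE, adjusted p = 3.1e-08). Cemip, listed as 9930013L23Rik, was at 0.944 to 1.75 CPM in POA, against 4.07 to 6.81 CPM in PFC (log2 -1.81 ± 0.29 SE, adjusted p = 1.3e-04). Both were lower in every POA pool than in any PFC pool. Col6a1 was at 57.6 to 105 CPM in POA, against 114 to 195 CPM in PFC (log2 -0.96 ± 0.20 SE, adjusted p = 9.8e-04). Slc22a8 was at 6.49 to 9.96 CPM in POA, against 11.3 to 15 CPM in PFC (log2 -0.74 ± 0.19 SE, adjusted p = 0.0043). Ptgds and Col4a2 were not called. The part of any of these cell classes in the differences of other lists was not tested.

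Immediate early genes, which neurons switch on within minutes of activity, were lower in POA as a group. In this list 1 of 32 tested members were called higher in POA and 27 lower, with a median log2 difference of -1.96, 24 of those lower at least 2-fold, and the summed level was 522 to 646 CPM in the POA pools, against 1909 to 2516 CPM in the PFC pools. Egr1 (Zif268) had 41.4, 45.3, 48.8 and 49.2 CPM in POA, against 473, 402, 446 and 458 CPM in PFC (log2 -3.26 ± 0.11 SE, adjusted p = 3.1e-11). Nr4a1 (NGFI-B) had 10.6, 8.5, 14.1 and 13.2 CPM in POA, against 62.6, 49.3, 60.6 and 73.9 CPM in PFC (log2 -2.37 ± 0.18 SE, adjusted p = 7.8e-08). The phosphatase gene Dusp14 had 4.04 to 6.14 CPM in POA, against 39.5 to 58.6 CPM in PFC (log2 -3.26 ± 0.19 SE, adjusted p = 7.2e-09). No POA pool of these 3 genes reached a PFC pool. Ier5 was at 1.08 to 2.6 CPM in POA, against 27.2 to 32.5 CPM in PFC, from 1 SNP (log2 -4.05 ± 0.22 SE, adjusted p = 3.6e-09). Fos itself was not called: it had 18.9, 16.8, 33.2 and 22.2 CPM in POA, against 30.3, 24.3, 32.9 and 39.5 CPM in PFC (log2 difference -0.47 ± 0.20, adjusted p = 0.062), with the F1i female POA pool within the range of the PFC pools. Jund1 (Jund) had overlapping pools as well (adjusted p = 0.93).

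Calmodulin kinase and postsynaptic density genes, which build the receiving side of excitatory synapses, were lower in POA in nearly the whole list. There, 0 of 51 tested members were called higher in POA and 45 lower, with a median log2 difference of -1.45, 35 of those lower at least 2-fold. The summed level was 7169 to 7784 CPM in the POA pools, against 33079 to 33894 CPM in the PFC pools, so the spread within each region was small beside the gap. Prkcc had 54.4, 64.7, 66.6 and 78.1 CPM in POA, against 889, 858, 739.9 and 854 CPM in PFC (log2 -3.66 ± 0.12 SE, adjusted p = 2.7e-11). Kalrn (kalirin), a spine exchange factor, had 72.2, 79.6, 80.7 and 86.5 CPM in POA, against 999.6, 981, 908 and 851 CPM in PFC (log2 -3.55 ± 0.11 SE, adjusted p = 1.8e-11). Itpka, an inositol trisphosphate kinase of spines, had 7.79 to 9.95 CPM in POA, against 84.1 to 108 CPM in PFC (log2 -3.53 ± 0.14 SE, adjusted p = 2.0e-10). The scaffold gene Dlg4 (PSD-95) was not called, with 224, 227, 256 and 282 CPM in POA, against 202, 268, 224 and 220.1 CPM in PFC (log2 difference 0.12 ± 0.11, adjusted p = 0.38). Of its 5 SNPs, 4 were lower in POA and 1 was higher, at 1.46. Camk2d, a kinase subunit found outside forebrain neurons too, was not called either, with 152 to 173 CPM in POA, against 121 to 168 CPM in PFC (adjusted p = 0.49).

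Transmitter receptors varied from gene to gene. Of the glutamate receptor genes 6 of 23 tested members were called higher in POA and 9 lower, with a median of -0.07 that was 0.03 under upper quartile scaling. Grm2 had 7.04, 4.72, 9.28 and 8.34 CPM in POA, against 38, 59.9, 58.5 and 55.4 CPM in PFC (log2 -2.80 ± 0.21 SE, adjusted p = 6.7e-08). The NMDA receptor subunits differed in direction. Grin2b had 15.7, 11.6, 23.9 and 13.1 CPM in POA, against 74.5, 82.2, 117 and 42.5 CPM in PFC (log2 -2.28 ± 0.22 SE, adjusted p = 9.1e-07). Grin2a had 9.2 to 11.6 CPM in POA, against 13.1 to 49.7 CPM in PFC (log2 -1.69 ± 0.31 SE, adjusted p = 4.0e-04). The F1r female pool was the lowest PFC pool for both. Grin2d, a subunit of the diencephalon and of interneurons, had 18.4, 16.8, 22.3 and 22.5 CPM in POA, against 4.07, 4.54, 4.34 and 3.51 CPM in PFC (log2 2.29 ± 0.19 SE, adjusted p = 2.2e-07). Gria1 and Grm7 were not called.

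Of the receptors for GABA and glycine, 2 of 14 tested members were called higher in POA and 8 lower, with a median log2 difference of -0.72. Without the F1r male PFC pool 4 were called higher. Gabra5 had 41.1 to 55.7 CPM in POA, against 149 to 227 CPM in PFC (log2 -1.87 ± 0.14 SE, adjusted p = 1.0e-07). Gabbr2 had 119 to 144 CPM in POA, against 331 to 473 CPM in PFC (log2 -1.65 ± 0.11 SE, adjusted p = 2.6e-08). Gabra2 had 36.3 to 49.6 CPM in POA, against 117 to 139 CPM in PFC (log2 -1.60 ± 0.12 SE, adjusted p = 7.8e-08). For these 3 genes no POA pool reached a PFC pool. Gabrg1 was higher in POA, with 43.8, 44.9, 31.6 and 40.6 CPM in POA, against 6.33, 13.8, 11.5 and 7.76 CPM in PFC (log2 2.01 ± 0.21 SE, adjusted p = 1.9e-06), whereas Gabrb2 was not called.

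Among receptors for monoamines, histamine and acetylcholine, 7 of 22 tested members were called higher in POA and 10 lower, with a median log2 difference of -0.55. With the deepest SNP alone 4 were called higher. Chrm1 (M1 muscarinic receptor) had 44.1, 46.7, 41.6 and 48.8 CPM in POA, against 450.0, 325, 351 and 434 CPM in PFC (log2 -3.11 ± 0.13 SE, adjusted p = 3.1e-10). Chrm3 had 21.7 to 27.9 CPM in POA, against 62.6 to 73.1 CPM in PFC (log2 -1.5 ± 0.13 SE, adjusted p = 2.3e-07). Adra1d had 0.996 to 1.35 CPM in POA, against 14.7 to 23.3 CPM in PFC (log2 -4.07 ± 0.25 SE, adjusted p = 1.3e-08). Adra2a was higher in POA, with 21.5 to 33.9 CPM in POA, against 5.84 to 8.81 CPM in PFC (log2 1.90 ± 0.19 SE, adjusted p = 1.7e-06), and Chrm4 and Drd5 were not called.

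Of the potassium channel genes, 15 of 54 tested members were called higher in POA and 27 lower, with a median log2 difference of -0.38. Kcnmb4, an accessory subunit of BK channels, had 29.2, 37.5, 54.1 and 43.7 CPM in POA, against 389.9, 289, 416 and 441 CPM in PFC (log2 -3.20 ± 0.18 SE, adjusted p = 4.3e-09). The modulatory subunit gene Kcnv1 was at 3.73 to 5.95 CPM in POA, against 35 to 83.1 CPM in PFC (log2 -3.64 ± 0.27 SE, adjusted p = 6.5e-08). Kcng1, of the same kind, was at 2.37 to 3.9 CPM in POA, against 19.5 to 34.8 CPM in PFC (log2 -3.13 ± 0.19 SE, adjusted p = 1.1e-08). In none of these 3 did the pools of the regions overlap. The leak channel gene Kcnk4 had 0.942 to 2.36 CPM in POA, against 7.58 to 10.9 CPM in PFC (log2 -2.67 ± 0.28 SE, adjusted p = 2.2e-06). Kcnc4, like Kcnc2, was not called. Sodium, calcium, HCN and TRP channel genes had 14 of 42 tested members called higher in POA and 13 lower, with a median log2 difference of 0.16, or 17 and 10 under upper quartile scaling. Cacna2d2 had 62.2, 65.9, 64.8 and 65.2 CPM in POA, against 5.65, 3.18, 7.19 and 3.88 CPM in PFC (log2 3.68 ± 0.19 SE, adjusted p = 1.7e-09). Trpm3 had 10.3 to 14.1 CPM in POA, against 1.36 to 2.22 CPM in PFC (log2 2.79 ± 0.24 SE, adjusted p = 2.7e-07). Cacnb3, a calcium channel beta subunit, was lower in POA with 148 to 174 CPM in POA, against 499 to 590.3 CPM in PFC (log2 -1.76 ± 0.10 SE, adjusted p = 4.4e-09), and Cacna1b and Trpc4ap were not called.

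Genes of transmitter release were called lower in POA more often than higher. Of the synaptic vesicle and exocytosis genes, 15 of 64 tested members were called higher in POA and 36 lower, with a median log2 difference of -0.51. Within the SV2 family of vesicle glycoproteins the members were opposed. Sv2b had 64.7, 53.8, 67.7 and 63.7 CPM in POA, against 965, 1097, 1031 and 787 CPM in PFC (log2 -3.95 ± 0.13 SE, adjusted p = 2.5e-11). Sv2c had 71.7, 90.7, 84.5 and 61.5 CPM in POA, against 7.45, 9.99, 7.04 and 7.95 CPM in PFC (log2 3.26 ± 0.17 SE, adjusted p = 2.5e-09). Syt2, a fast calcium sensor of release, had 37.9, 33.8, 31.9 and 31.4 CPM in POA, against 2.71, 4.31, 3.44 and 4.44 CPM in PFC (log2 3.16 ± 0.18 SE, adjusted p = 6.0e-09), though its SNPs ranged from -0.67 to 5.02. The SNARE gene Stx1a had 72.2, 65.2, 62.1 and 59.8 CPM in POA, against 508, 472, 476 and 467 CPM in PFC (log2 -2.90 ± 0.10 SE, adjusted p = 4.3e-11), and Nrxn2 and Syt13 were not called.

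Cadherins and protocadherins, which mediate recognition between cells, had -0.29 as their median, with 15 of 76 tested members called higher in POA and 29 lower. The count lower in POA rested on small differences: it was 14, with 17 higher, under upper quartile scaling, 10, with 9 higher, with the deepest SNP alone, and 12 without the F1r male or without the F1r female POA pool. The gamma protocadherins Pcdhgc4 and Pcdhgc5 were opposed, but come from a gene cluster with shared exons, so that their counts are uncertain. Pcdhgc4 was at 27 to 30.3 CPM in POA, against 3.86 to 7.0 CPM in PFC (log2 2.35 ± 0.18 SE, adjusted p = 8.0e-08). Pcdhgc5 was at 23.8 to 35.6 CPM in POA, against 124 to 174 CPM in PFC (log2 -2.25 ± 0.15 SE, adjusted p = 1.9e-08). Pcdh7 and Pcdh21, other protocadherin-like genes, were opposed too. Pcdh7 was at 20.3 to 23.3 CPM in POA, against 4.62 to 10.2 CPM in PFC (log2 1.36 ± 0.20 SE, adjusted p = 5.4e-05). Pcdh21 was at 5.67 to 7.31 CPM in POA, against 19.4 to 25 CPM in PFC (log2 -1.80 ± 0.17 SE, adjusted p = 7.8e-07), while Celsr2 and Cdh2 were not called. Among ephrins, semaphorins, plexins, netrins and Slits with their receptors, 21 of 62 tested members were called higher in POA and 20 lower, with a median log2 difference of 0.23. Ntn1 (netrin 1) had 24.9, 37.5, 38.3 and 38.8 CPM in POA, against 5.42, 6.58, 5.84 and 10.5 CPM in PFC (log2 2.31 ± 0.19 SE, adjusted p = 2.5e-07). The members of the ephrin system named here were lower in POA. Epha4 had 76.3, 79.1, 73.7 and 76.4 CPM in POA, against 343, 425, 328 and 345 CPM in PFC (log2 -2.24 ± 0.10 SE, adjusted p = 8.3e-10). Ephb6 had 40.4 to 61.3 CPM in POA, against 189 to 259.6 CPM in PFC (log2 -2.17 ± 0.13 SE, adjusted p = 6.0e-09). Efna2 had 2.71 to 3.77 CPM in POA, against 11.1 to 15.6 CPM in PFC (log2 -2.15 ± 0.20 SE, adjusted p = 8.2e-07), and Robo1 and Plxnc1 were not called.

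Genes that every cell uses were set beside all genes, as a description. TMM scaling already sets the bulk of genes near 0, so their medians do not test the scaling. The median of all genes was -0.005, or 0.096 under upper quartile scaling. Cytosolic ribosomal protein genes had a median of -0.01, which was 0.09 under upper quartile scaling and above 0 with DESeq2 too, with 12 of 49 tested members called higher in POA and 14 lower. Nuclear genes of mitochondrial respiration had a median of 0.07, with 20 of 56 called higher and 14 lower. Shares of 24.5% and 28.6% of the ribosomal genes were close to the 26.9% and 29.2% of all genes. Single members still differed widely. Rpl4 was at 221 to 243 CPM in POA, against 570.3 to 685 CPM in PFC (log2 -1.48 ± 0.10 SE, adjusted p = 1.9e-08), and Rps6 was not called (594 to 752 CPM in POA, against 569 to 711 CPM in PFC). Cox8a, a subunit of cytochrome oxidase, was at 311 to 359 CPM in POA, against 1108 to 2202 CPM in PFC (log2 -2.25 ± 0.17 SE, adjusted p = 9.0e-08). Ndufa8 was at 46.7 to 71.7 CPM in POA, against 238 to 339.7 CPM in PFC (log2 -2.28 ± 0.14 SE, adjusted p = 1.1e-08). Both rested on 1 SNP, and so did Rpl23a, Rps20 and Rpl34, with log2 differences of -1.29, -1.28 and 1.23. Ribosomal genes have many near-identical copies, so that their reads are uncertain. Cox7c (-1.58) and Cycs (-1.49) were lower in POA, and Rps15, Uqcrc2 and Cox7a2l were not called.

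Whether the regions differed alike in both sexes and both crosses was tested with an interaction term for each gene. For region by sex, edgeR called 0 of 11576 genes (0%), while 345 had an unadjusted p under 0.05. DESeq2 called 0 as well, while 134 had an unadjusted p under 0.05. For region by cross, edgeR also called 0 of 11576 genes (0%), while 277 had an unadjusted p under 0.05. The same term in DESeq2 gave 0 calls and 133 such genes. Each of these counts of unadjusted p was a smaller share of the genes than the 0.05 that chance alone would pass. Without the filter on low counts edgeR called 0 of 12563 genes for either factor. A p that misses the threshold does not show that the regions differed alike in both sexes or both crosses.

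The SNPs of a gene were also compared with each other. They can differ in their ratio between the regions where the regions use other isoforms or transcript ends, as well as through error of measurement, and these were not told apart. Over 5420 genes with at least 5 SNPs of 100 or more reads, the median SD of the log2 difference, POA minus PFC, among the SNPs of a gene was 0.791, against 0.378 and 0.352 for the log2 difference between male and female pools of POA and of PFC. Among called genes with at least 5 SNPs, 22.1% had every SNP on the side of the gene and 57.6% had at least 80% of them there. Of those called and at least 2-fold different, these shares were 54.3% and 90.3%. A larger share of genes was called and at least 2-fold different where a gene rested on 1 SNP (37.0%) than on 10 to 19 SNPs (15.8%). The cause of this spread was not tested, and the p-values, which rest on the spread between pools, do not contain it.

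**Figure D5:**
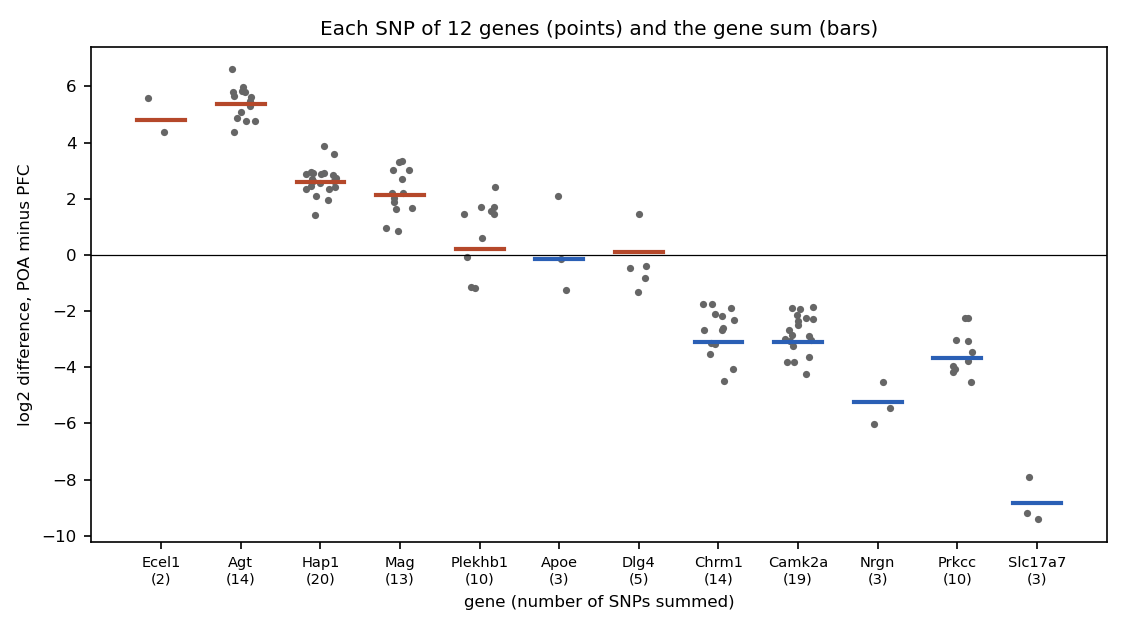
Log2 difference, POA minus PFC, of each summed SNP (grey points) and of the gene (bar) for 12 genes, with the number of SNPs in brackets. All SNPs of Agt, Ecel1, Hap1, Mag, Chrm1, Camk2a, Nrgn, Prkcc and Slc17a7 lie on the side of their gene, and those of Plekhb1, Apoe and Dlg4 lie on both sides.

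For 23 of the 24 genes of largest difference, 12 in each direction, all SNPs stood on the side of the gene, and Syt2 was the exception. The genes were picked by the sum of these same SNPs, and some had only 2 or 3, so this agreement is no separate check. The 14 SNPs of Agt ranged over 4.39 to 6.60, the 8 of Peg10 over 2.17 to 4.79 and the 3 of Slc17a7 over -9.41 to -7.89 in log2 difference. Among other named genes, the 20 SNPs of Hap1 ranged over 1.41 to 3.86, the 19 of Camk2a over -4.25 to -1.86 and the 10 of Prkcc over -4.53 to -2.25. In genes with small differences the SNPs disagreed: the 10 SNPs of Plekhb1 ranged over -1.18 to 2.40, the 3 of Apoe over -1.24 to 2.10 and the 5 of Dlg4 over -1.33 to 1.46.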

How the data were processed

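The deposited values are raw counts of reads that carry either strain's base at a SNP of a transcript, per pool, with the 2 technical libraries of a pool already summed by the authors. Per the labels' protocols, polyadenylated RNA of integrity above 9 was primed with random hexamers and read over 36 cycles. Reads were aligned with Novoalign to mm9, per the submitters' processing notes. Its version is not given in the sources used here.

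SNPs listed for both regions were taken, both alleles were added, and reads were summed per gene symbol over the SNPs of its most-read transcript on autosomes 1 to 19. A SNP listed more than once kept its listing with most reads. SNPs less than 36 bases apart can count a read more than once, and reads do not tell the strand. edgeR 4.0.16 (R 4.3.3), with filterByExpr, TMM scaling, cross as covariate and the quasi-likelihood test, compared 4 POA with 4 PFC pools with 5 residual degrees of freedom. P-values were adjusted by the Benjamini-Hochberg method over all 11576 genes, and a gene was called at an adjusted p under 0.05. The labels do not say that pools came from separate dissections or litters and name no batch, so p-values measure the spread between these pools. Alternatives were DESeq2 1.42.0, other scalings, filters, covariates, SNP choices and subsets of pools. The fit was also run on simulated counts with 200 genes changed, as many up as down. Far more genes were called here, so that run does not test the scaling of these data.

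The 30 gene lists were chosen with earlier results of these data known. Named were the 12 called genes of largest difference in each direction, with a mean of at least 50 reads. They had no overlap between the regions' pools and a gene symbol, so RIKEN, clone and accession names were left out. All members of the marker lists for cortex and preoptic area were named too. So were up to 4 called members of largest difference and 2 uncalled members with most reads per list. The 10 members with most reads that were listed for 1 region were also named. Some genes that this rule takes are not reported here. Sequences and gene positions came from NCBIM37 and GENCODE vM1, read with pysam 0.24.0.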

Additional observations from a re-analysis of the deposited data

Results flagged for a closer look

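In 14 of 448 groups of 4 pools (3.12%), the highest or lowest pool stood far from the other 3, with a gap beyond Dixon's critical value. Chance marks about 1 in 20 such groups. No pool was named by the labels as different in handling, and no cause was tested.

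Among the POA pools, the F1i female pool had 809 CPM in the summed neuropeptide precursors, where the others had 762 to 769. Its summed transmitter identity genes came to 597 CPM, against 630 to 631 CPM in the others. Apoe was at 858 CPM in the F1r male POA pool, against 832 to 834 CPM in the other POA pools, and Ntn1 at 24.9 CPM in the F1i male POA pool, against 37.5 to 38.8 CPM. The first 3 of these gaps are small beside the levels.

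Among the PFC pools, the F1r male pool was set apart most often. It had 1049 CPM in the transmitter identity genes, where the others had 1181 to 1200 CPM, and 821 CPM in the oligodendrocyte precursor genes, where the others had 725 to 737 CPM. In the same pool C1qc was at 18.4 CPM (others 27.1 to 28.8), Efna2 at 11.1 CPM (15.3 to 15.6), Slc17a7 at 591 CPM (716 to 736) and Vip at 20.2 CPM (25.7 to 26.2). The F1r female PFC pool had 12 CPM of Calb2 (others 9.58 to 9.99), 4.62 CPM of Pcdh7 (9.49 to 10.2) and 31.2 CPM of Rasl10a (27.1 to 27.7). Slc17a6 was at 4.74 CPM in the F1i male PFC pool, where the others had 8.38 to 8.63 CPM. Of these genes Apoe and C1qc were not called between the regions, and the others were.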

How the results depend on the processing

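The counts of genes called higher and lower in POA, of those at least 2-fold apart, and of the called members over all lists stayed within 1.5 times of their values under the alternatives run, except for the following. With the F1r pools alone 1557 genes were called higher and 1920 lower. With the deepest SNP of each gene alone 2050 genes were at least 2-fold higher and 2098 at least 2-fold lower, and 126 of the 4782 shared calls had the opposite direction. Summing every SNP listed for a region made 1431 genes at least 2-fold higher. Fewer pools or fewer SNPs entered in the first 2 of these, and the cause was not tested otherwise. Upper quartile scaling set the median of all genes at 0.096 and called 3714 higher and 2843 lower, so that 56.6% of the calls were higher, against 48.0%. Leaving out 1 pool at a time gave 2686 to 3270 genes higher, 2936 to 3430 lower, 924 to 1040 at least 2-fold higher and 1227 to 1270 at least 2-fold lower.

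The labels do not pair the pools, so pairing was not assumed. The deviations of POA and PFC pools of the same cross and sex correlated at -0.012, 0.227, 0.06 and 0.072 across genes. Those of pools of unlike cross or sex correlated at -0.187 to 0.117, so the 0.227 of the F1r male pools was the highest of all. These values do not settle whether the pools are paired. With the replicate block of cross and sex 3193 genes were called higher and 3402 lower, 964 and 1223 of them at least 2-fold.

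Of the 60 counts of single lists, called higher or lower, 37 moved by more than 1.5 times under at least 1 alternative other than leaving out 1 pool, and 10 did so when 1 pool was left out. Among these were 28 counts with the F1r pools alone, 12 with the deepest SNP alone and 6 under upper quartile scaling.

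Of 137 called genes named, 8 lost the call under at least 1 alternative, with the same sign. With the deepest SNP alone the log2 difference was nearer 0 for Crym (-0.246, against -0.85), Fcgr3 (-0.262, against -1.19) and Acta2 (0.128, against 0.60). Col6a1 (-0.766, against -0.96), Cutl2 (-0.747, against -0.98) and Rpl34 (1.13, against 1.23) lost it with the F1r pools alone, and Slc22a8 (-0.469 to -0.589, against -0.74) and Tyrobp (-0.526 to -0.72, against -0.70) with the female or the F1r pools, where 4 pools entered. The genes that became called with the other sign were none of them called at first. They were Apoe (-0.15, against 0.446 with repeated listings dropped, an alternative chosen after seeing the data), Cox7a2l (0.07, against -0.255 with every listed SNP) and, with the deepest SNP alone, Bsg (-0.926), Hsd17b4 (1.366), Plekhb1 (-0.769), Ptprn2 (0.472), Reln (-0.618) and Rps6 (-0.603). In 129 further cases the sign differed while the gene was called under neither setting. Median differences of lists near 0 changed sign with some subsets of pools or SNPs. The alternative that takes all transcripts of a symbol counted rows with identical reads in all 8 pools once. Genes of few reads or 1 SNP have the least certain values.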
